A study of Homo sapiens with 6 samples.

Results

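The 10 genes of the cadherin switch and of epithelial-mesenchymal transition (EMT) were examined in HepG2 cells with and without recombinant GDF11. They are the cadherin genes CDH1 and CDH2, the vimentin gene VIM, the transcription factor genes SNAI1, SNAI2, ZEB1, ZEB2 and TWIST1, and the splicing factor genes ESRP1 and ESRP2. They were taken by symbol from the 60240 Ensembl genes of the deposited table, in which each of the 10 had 1 row. HepG2 is an established human hepatocellular carcinoma line, and GDF11 (growth differentiation factor 11) is a secreted ligand related to TGF-beta and activins. RNA came from 3 control cultures and from 3 cultures given 100 ng/ml recombinant GDF11 for 24 h, which the labels call biological replicates. The labels do not state what the control cultures received in place of GDF11. The experiment rests on 1 tumour line, 1 dose and 1 time, and bulk RNA cannot tell fewer cells of a kind from less RNA per cell.

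E-cadherin (CDH1) and N-cadherin (CDH2) are calcium-dependent adhesion proteins that join neighbouring cells and bind catenins on the inner side of the membrane. In EMT, epithelial cells lose their junctions and gain motility; the textbook form has E-cadherin falling, N-cadherin and the intermediate filament protein vimentin rising, and Snail, ZEB and TWIST factors repressing CDH1 through E-box sequences. ESRP1 and ESRP2 maintain epithelial patterns of alternative splicing. TGF-beta family ligands are well-known inducers of EMT, and hepatocytes are known to carry both cadherins.

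GDF11-treated cells held more RNA of both cadherins. CDH1 stood at 13.8 times and CDH2 at 3.46 times the control mean on back-transformed normalised reads, and ZEB1 at 1.67 times. SNAI1, SNAI2 and ESRP2 were not called. VIM, ZEB2, TWIST1 and ESRP1 were listed at or near the lowest value of the table in both groups. Of the 10 genes, 6 passed the filter on low values (a mean 0.5 or more above 5.52, the value that stands for no reads), and 3 of these 6 were called higher and 0 lower. A gene was called at a Benjamini-Hochberg adjusted p under 0.05 in limma, fitted across 18723 genes. Of all tested genes 22.4% were called, 11.7% higher and 10.8% lower. The median difference of the 6 tested genes was 0.38 on the log2 scale, against 0.006 over all tested genes. The groups did not overlap for 4 of the 6 (CDH1, CDH2, ZEB1 and ESRP2), as for 40.5% of all tested genes. The filter on the mean favours genes that are high in either group, so these counts describe the 6 and not the 10.

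**Figure D1:**
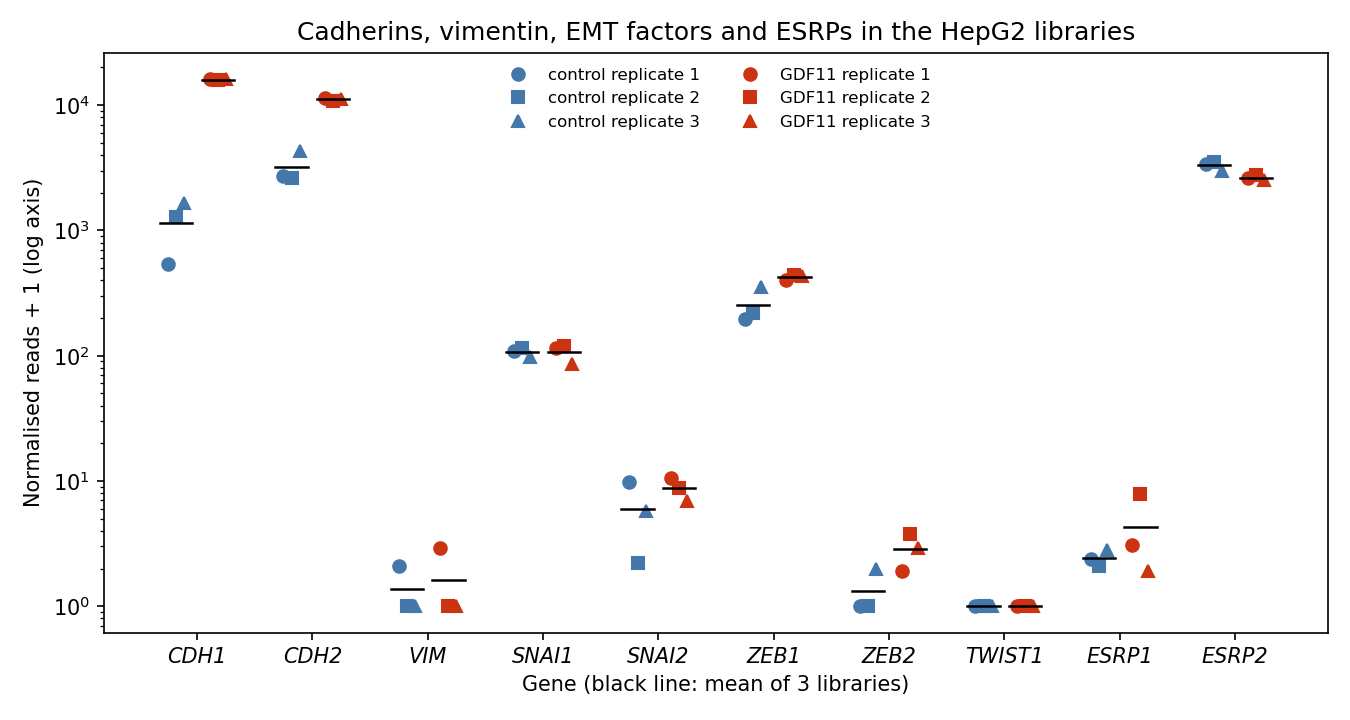
Normalised reads plus 1 (log axis) of the 10 genes in each of the 6 libraries, with controls in blue, GDF11 in red, 1 marker shape per replicate number and a black line at each group mean. The GDF11 libraries of CDH1 lie at 15778 to 16074 reads against 540.3 to 1641 in the controls, whereas VIM and TWIST1 stay at the bottom of the axis in both groups.

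Libraries held an estimated 47900000 to 53400000 reads each. Control replicate 3 stood nearer to the GDF11 libraries than the other controls did for several genes, and farther from them for others. Its position is given on a scale running from 0 at the average of the other controls to 1 at the GDF11 average. Below, it is given for the 3 called genes and for the named list genes called where it passed 0.6 in size. Named genes under that size included KRT8 (-0.59), KRT19 (-0.49) and TAGLN (-0.44), where it lay away from the GDF11 mean. RNA integrity numbers were 9.6 to 9.9 in controls and 9.4 to 9.6 with GDF11, so they moved with the groups. Hepatocyte markers were present: ALB, APOA1, AFP, TTR, SERPINA1, TF, FGB, AHSG, HNF4A and APOH were all measured, summing to 1574693 to 2285524 normalised reads in controls and 1259582 to 1451891 with GDF11, and 6 of the 10 were called lower and 0 higher. Markers of fibroblasts and stellate cells summed to 1105 to 1678 reads in controls and 2112 to 2754 with GDF11, with PDGFRB at means of 1136 and 2172 reads and COL6A3, which was not called, at 250.0 and 121.0, while LUM, DCN and COL3A1 had group means of 0 to 6.56 reads; 1 of 10 was called higher. Endothelial markers summed to 53.8 to 97.3 and 13.2 to 33.4 reads, with TEK, CLEC14A and ERG at 0 and 1 of 8 called lower. Leukocyte markers summed to 68150 to 79864 and 32207 to 34052 reads, nearly all LYZ; PTPRC and CD3E were at 0, and of 8 markers 1 was called higher and 1 lower.

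The sequences before the start sites of 3 genes are shown: CDH2 and ZEB1, which were called higher, and VIM, listed at or near the lowest value. The call of ZEB1 was not stable and the reason for the low VIM values is not known (both below). The 3 stretches are therefore no contrast of risen and unmoved genes. Of the 10 genes, 4 (CDH2, VIM, ZEB1 and ZEB2) were matched in the RefSeq promoter table (GRCh38.p14); CDH1, SNAI1, SNAI2, TWIST1, ESRP1 and ESRP2 were not. Each stretch holds the 250 bases before the gene's most upstream start, 5′ to 3′ on the gene's strand, in lower case with motif matches in capitals. CDH2 has 2 starts and ZEB1 7 in that table, and only the most upstream of each was searched.
CDH2, chr18:28177131-28177380, minus strand: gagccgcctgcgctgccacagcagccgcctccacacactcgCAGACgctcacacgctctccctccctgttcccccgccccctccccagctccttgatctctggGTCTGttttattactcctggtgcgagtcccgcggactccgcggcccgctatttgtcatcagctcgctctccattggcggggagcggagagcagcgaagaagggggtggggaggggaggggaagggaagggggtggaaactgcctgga
ZEB1, chr10:31318167-31318416, plus strand: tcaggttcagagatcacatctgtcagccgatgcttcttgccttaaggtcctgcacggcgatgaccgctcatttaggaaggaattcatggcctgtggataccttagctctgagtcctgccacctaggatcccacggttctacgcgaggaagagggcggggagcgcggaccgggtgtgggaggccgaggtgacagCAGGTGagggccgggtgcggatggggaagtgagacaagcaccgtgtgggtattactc
VIM, chr10:17227991-17228240, plus strand: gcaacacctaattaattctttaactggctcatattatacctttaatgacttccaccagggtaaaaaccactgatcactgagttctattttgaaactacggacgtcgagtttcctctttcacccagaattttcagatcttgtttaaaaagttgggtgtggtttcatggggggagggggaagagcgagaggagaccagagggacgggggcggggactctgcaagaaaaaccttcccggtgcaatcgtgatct
The motifs searched on both strands were CAGGTG or CACCTG (the E-box read by Snail and ZEB factors), CAGAC or GTCTG (the SMAD box) and TGACTCA or TGAGTCA (the AP-1 site); none overlapped another in these stretches. The CDH2 stretch held 2 SMAD boxes, at bases 42 to 46 and 104 to 108, and 17 CG pairs. The ZEB1 stretch held 1 E-box, at bases 194 to 199, which begins 57 bases before the start, and 15 CG pairs. The VIM stretch held none of the 3 motifs and 8 CG pairs. The ZEB2 stretch, searched but not shown, held none of the 3 motifs and 12 CG pairs. Over the 35116 windows of this length in the table, 17.5% held the E-box, 38% the SMAD box and 4.2% the AP-1 site. A match describes letters only, and a missing match says nothing about a factor.

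CDH1 (ENSG00000039068.19, chromosome 16, 68737292 to 68835537 of GRCh38) had 540.3, 1281 and 1641 normalised reads in control replicates 1, 2 and 3, and 16031, 15778 and 16074 with GDF11. The treated libraries lay close together and the controls were spread about, so that the lowest treated library still stood 9.62 times above the highest control. On the log2 scale CDH1 rose from 10.16 ± 0.77 to 13.97 ± 0.014 (mean ± SD, n = 3 each). The difference was 3.81 ± 0.32 (± SE, limma; 95% interval 3.08 to 4.55, adjusted p = 9.23e-05), the 12th highest among the 18723 tested genes on this scale. Control replicate 3 stood at 0.22 of the way to the GDF11 mean, and control replicate 1 was the lowest of the controls. The textbook marker that falls in EMT was the member with the highest increase here.

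CDH2 (ENSG00000170558.9, chromosome 18, 27932879 to 28177130) had 2695, 2611 and 4329 reads in control replicates 1, 2 and 3, and 11313, 10881 and 11165 with GDF11. The groups did not overlap, and the lowest treated library stood 2.51 times above the highest control. CDH2 rose from 11.65 ± 0.40 to 13.45 ± 0.028, a difference of 1.80 ± 0.20 (95% interval 1.34 to 2.26, adjusted p = 0.000418). Control replicate 3 lay at 0.34 of the way to the GDF11 mean. When the RNA integrity number was added to the fit, both cadherins were still called, CDH1 at 3.44 (adjusted p = 0.00494) and CDH2 at 1.34 (adjusted p = 0.00896).

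The balance of the cadherins moved toward CDH1. CDH2 minus CDH1 on the log2 scale was 2.15, 0.98 and 1.35 in control replicates 1, 2 and 3, and -0.50, -0.53 and -0.52 with GDF11. All controls were above 0 and all treated libraries below it. The group means were 1.49 ± 0.60 and -0.52 ± 0.017 (SD, n = 3 each), a change of -2.01, given as a description without a test because it is built from members. Gene length cancels in that change. To set the genes side by side, reads were divided by the length of the canonical transcript, 4811 bases for CDH1 and 4016 for CDH2. CDH1 then made up 14.3%, 29.1% and 24.0% of both cadherins' reads per kb in control replicates 1, 2 and 3, and 54.2%, 54.8% and 54.6% with GDF11. The treated ratio lies near 1, and which cadherin leads there depends on the transcript lengths used.

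**Figure D2:**
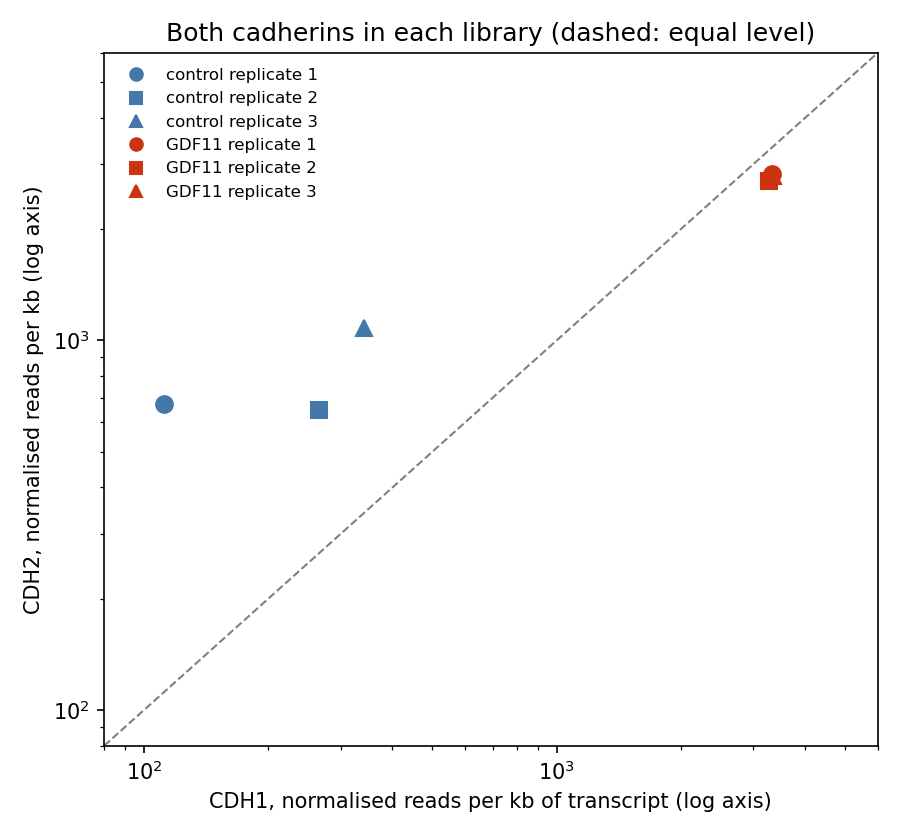
Normalised reads per kb of canonical transcript of CDH1 (horizontal) and CDH2 (vertical), both on log axes, for the 6 libraries; the dashed line marks equal levels. The controls lie above the line at 112 to 341 for CDH1 and 650 to 1078 for CDH2, and the GDF11 libraries lie just below it at 3280 to 3341 and 2709 to 2817.

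Per kb of canonical transcript, ESRP2 and CDH2 were the highest of the 10 genes in controls, and their ranges met (865 to 1030 and 650 to 1078 reads per kb). CDH1 followed at 112 to 341, then SNAI1 at 56.4 to 67.3 and ZEB1 at 33.0 to 59.1, which overlapped. With GDF11 the order was CDH1, CDH2 and ESRP2 (733 to 807), with no overlap between neighbours, and then ZEB1 (67.9 to 74.4) and SNAI1 (50.0 to 69.1), which overlapped again. SNAI2 stayed at 0.554 to 4.41 reads per kb over all 6 libraries.

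Vimentin transcripts were listed at or near 0 in both groups. VIM had 1.1, 0.0 and 0.0 normalised reads in the controls and 1.9, 0.0 and 0.0 with GDF11. It did not pass the filter, and without the filter its difference was 0.02 (adjusted p = 0.919). A count of 0 at this depth allows up to 3 reads. The table can also list a gene at 0 for other reasons: INSIG1 and ME1, which are widely expressed, had 0.0 to 1.1 and 0.0 reads, so whether these cells lack VIM or its quantification missed it cannot be read from the values.

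Among the E-box factors of the 10 genes, ZEB1 alone was called. ZEB1 (ENSG00000148516.21, chromosome 10, 31318417 to 31529804), a zinc finger repressor of CDH1, had 196.1, 218.2 and 350.9 reads in control replicates 1, 2 and 3, and 402.9, 441.5 and 434.3 with GDF11. The groups did not overlap, but control replicate 3 stood at 0.72 of the way to the GDF11 mean and the lowest treated library was 1.15 times the highest control. The difference was 0.62 ± 0.19 (95% interval 0.19 to 1.05, adjusted p = 0.0446). The call ended on leaving out any library other than control replicate 3 (0.50 without control replicate 1, 0.55 without control replicate 2, 0.65, 0.60 and 0.61 without GDF11 replicates 1, 2 and 3), without the filter (adjusted p = 0.0531) and with the RNA integrity covariate (0.22, adjusted p = 0.636). Without control replicate 3 it was 0.82. ZEB2, the related factor, had 0.0, 0.0 and 1.0 reads in the controls and 0.9, 2.8 and 1.9 with GDF11. ZEB2 was below the filter, and without the filter was not called (0.21, unadjusted p = 0.0495, adjusted p = 0.204).

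SNAI1, SNAI2 and TWIST1 differed in level, and none was called. SNAI1, whose product Snail is an immediate target of TGF-beta signalling in many epithelial cells, had 108.1, 114.7 and 96.2 reads in controls and 113.3, 117.7 and 85.3 with GDF11. The groups overlapped, and the difference was -0.01 ± 0.14 (95% interval -0.32 to 0.30, adjusted p = 0.961). SNAI2, which encodes Slug, had 8.8, 1.2 and 4.8 reads in controls and 9.6, 7.8 and 5.9 with GDF11, a difference of 0.14 ± 0.11 (95% interval -0.11 to 0.40, adjusted p = 0.392). The variance-stabilised scale shrinks changes at low values (to 0.696 of their true log2 size at a value of 8, and further at SNAI2's level), so these intervals understate the changes that the data allow. TWIST1, a basic helix-loop-helix factor, was listed at 0 in all 6 libraries.

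The ESRP genes differed in level. ESRP2 (ENSG00000103067.14, chromosome 16, 68229033 to 68236127) had 3418, 3530 and 2965 reads in control replicates 1, 2 and 3, and 2636, 2766 and 2513 with GDF11. Each treated library was below each control, and the difference was -0.31 ± 0.14 (95% interval -0.63 to 0.01, adjusted p = 0.144), which missed the threshold. ESRP2 was called lower without control replicate 3 (-0.39, adjusted p = 0.025) and with library weights (-0.35, adjusted p = 0.0136), and stood at -0.13 with the RNA integrity covariate (adjusted p = 0.71). ESRP1 had 1.4, 1.1 and 1.8 reads in controls and 2.1, 6.8 and 0.9 with GDF11, below the filter, and without the filter was not called (0.10, adjusted p = 0.63). The table holds 1 value per gene, so the splice forms these factors govern were not measured.

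**Figure D3:**
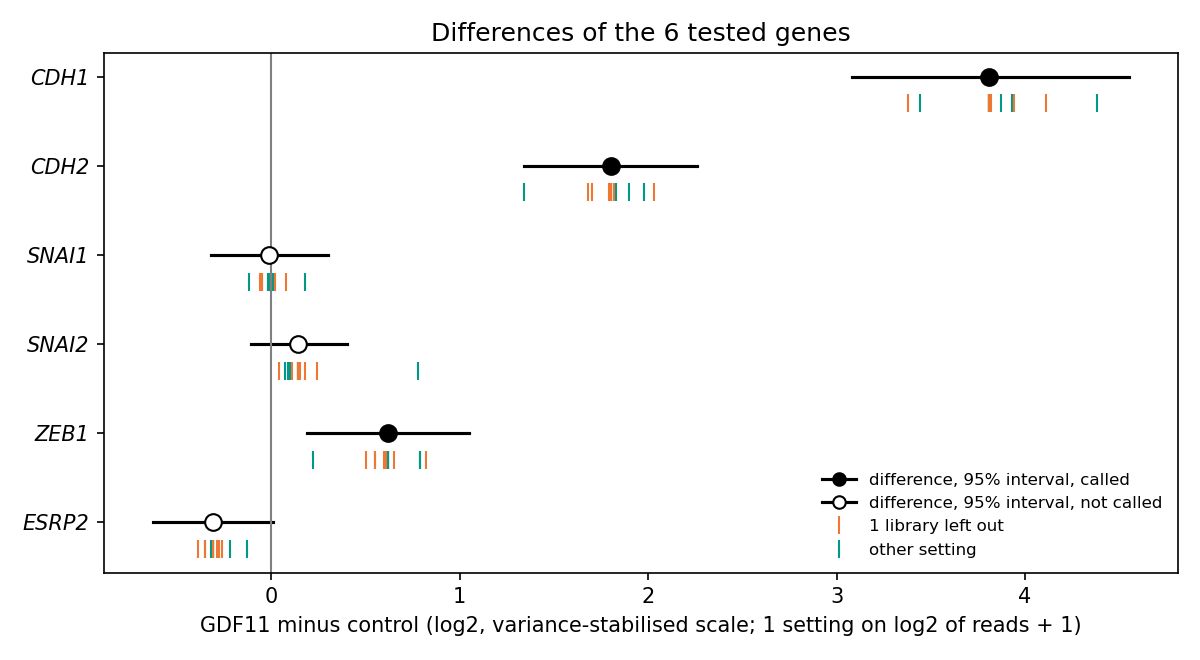
GDF11 minus control on the variance-stabilised log2 scale for the 6 tested genes, with limma's 95% interval; filled circles were called, open circles were not, and ticks below each show the value with 1 library left out or under another setting. CDH1 stays at 3.38 or above and CDH2 at 1.34 or above under every setting shown, while the ticks of SNAI1 fall on both sides of 0.

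Other cadherins and the catenins that anchor them moved in both directions: of 19 genes, 12 were tested, 3 rose, 3 fell and 6 were not called, with a median difference of -0.07. Beside the counts of this list and those below, 22.4% of all tested genes were called, 11.7% higher and 10.8% lower. Leaving out control replicate 3 raised the numbers over all tested genes from 2185 higher and 2017 lower to 3647 and 3993. List counts without that library are to be read beside these. VCL, for the actin-binding protein vinculin, rose by 1.16 ± 0.18 (adjusted p = 0.00259), from 2152 to 3367 reads in controls to 5678 to 6060 with GDF11. CTNNA1, for alpha-catenin, rose by 0.91 ± 0.20 (adjusted p = 0.0125). CTNNB1, for beta-catenin, rose by 0.76 ± 0.20 (adjusted p = 0.0283), and ARVCF fell by 0.74 ± 0.21 (adjusted p = 0.037); these genes, outside the rule for named genes, complete the 6 called. CDH15, muscle cadherin, fell by 1.16 ± 0.26 (adjusted p = 0.0139) and CDH16, kidney cadherin, by 0.89 ± 0.19 (adjusted p = 0.0105), whereas CDH3, CDH5 and CDH24 were not called (-0.06, -0.16 and -0.01). Control replicate 3 stood at 0.65 of the way to the GDF11 mean for CTNNB1, 0.66 for CDH15 and -0.83, away from the GDF11 mean, for ARVCF. All of these calls but that of VCL ended with the RNA integrity covariate (CTNNA1 0.56, CTNNB1 0.29, ARVCF -0.95, CDH15 -0.39 and CDH16 -0.40). Leaving out 1 library ended the calls of CTNNA1 (0.91 and 0.87 without GDF11 replicate 1 or 3), CDH15 (-1.03 without control replicate 1, -1.08 without GDF11 replicate 3), CTNNB1 (0.62 to 0.81 without any library but control replicate 3) and ARVCF (-0.76 to -0.66 without control replicate 2 or any GDF11 library); the number higher was then 1 without GDF11 replicate 1 or 3, and the number lower 1 without GDF11 replicate 3.

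In a list of 20 further transcription factors linked to EMT, 13 were tested, 2 rose, 2 fell and 9 were not called, with a median difference of 0.18. SOX4, an HMG-box factor and TGF-beta target, had 414.0 to 884.6 reads in controls and 3347 to 4020 with GDF11, and rose by 2.43 ± 0.23 (adjusted p = 0.000189). TCF12, an E-protein, rose by 0.70 ± 0.21 (adjusted p = 0.046), SOX9 fell by 0.54 ± 0.16 (adjusted p = 0.0366) and SNAI3, the remaining Snail family member, fell by 0.44 ± 0.14 (adjusted p = 0.0495). The calls of TCF12, SOX9 and SNAI3 each ended without the filter and on leaving out any library other than control replicate 3, at 0.53 to 0.73, -0.62 to -0.48 and -0.49 to -0.31, so that 1 gene was then higher and 0 lower. Without control replicate 3 the number higher was 5, and that library stood at 0.77 of the way to the GDF11 mean for TCF12. With the RNA integrity covariate TCF12 (0.18) and SNAI3 (-0.28) were not called either, and with quantile normalization SOX9 was not (-0.41). SNAI3 has low values, where the scale compresses changes, and on log2 of reads plus 1 it stood at -1.08, against -0.55 for SOX9. FOXC2, PRRX1, MSX2 and TBXT were listed at 0 in every library.

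Of 15 factors that hold the epithelial or hepatic state, 11 were tested, 3 rose, 2 fell and 6 were not called (median difference -0.11). EHF, an ETS factor of epithelia, had 2.3 to 3.2 reads in controls and 28.4 to 40.0 with GDF11 and rose by 0.86 ± 0.096 (adjusted p = 0.000394). Its control mean of 5.88 lay under the filter, which it passed through its GDF11 mean of 6.74. Its place in the count of genes that rose thus rests on the group where it is high. KLF4 rose by 0.71 ± 0.13 (adjusted p = 0.0046) and KLF5 by 0.75 ± 0.19 (adjusted p = 0.0241). FOXA2, a forkhead factor of liver, fell by 0.83 ± 0.18 (adjusted p = 0.0115). EHF and KLF4 lie near the lowest value, where the scale compresses changes: on log2 of reads plus 1 they stood at 3.22 and 2.03. With the RNA integrity covariate the call of EHF held, while KLF4 (0.42), KLF5 (0.22) and FOXA2 (-0.42) were not called. Control replicate 3 stood at 0.65 of the way to the GDF11 mean for KLF5. The call of KLF5 ended at 0.60 to 0.77 without control replicate 1 or 2 or GDF11 replicate 1 or 3, and that of FOXA2 at -0.79 without GDF11 replicate 3; leaving out control replicate 1, GDF11 replicate 1 or GDF11 replicate 2 left 1 gene lower, and leaving out GDF11 replicate 3 left 0.

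Among 21 splicing factors linked to EMT, 18 were tested, 2 rose, 0 fell and 16 were not called, with a median difference of 0.23. The share called over all tested genes was 22.4%, for this list and the corepressors alike. The muscleblind genes MBNL2 (1.14 ± 0.21, adjusted p = 0.00557) and MBNL3 (0.82 ± 0.24, adjusted p = 0.0404) rose, and both calls ended with the RNA integrity covariate (0.63 and 0.26). The call of MBNL3 also ended on leaving out any library but control replicate 3 (0.58 to 0.95), which left 1 gene higher. Without control replicate 3 the numbers higher and lower were 8 and 2, and those over all tested genes also rose, to 3647 and 3993. Of 18 corepressor and chromatin genes that work with Snail and ZEB factors, all were tested, 1 rose, 2 fell and 15 were not called (median difference -0.12). Among those not called, CTBP2 is widely expressed but was listed at only 19.4 to 30.2 reads. As for VIM, the reason cannot be read from the values. The histone methyltransferase genes SUV39H1 and EHMT2 fell by 1.12 ± 0.21 (adjusted p = 0.0063) and by 0.85 ± 0.19 (adjusted p = 0.0138), and RCOR1, for a CoREST subunit, rose by 0.70 ± 0.18 (adjusted p = 0.0218). The call of RCOR1 ended at 0.57 to 0.66 without control replicate 1, GDF11 replicate 1 or GDF11 replicate 3, and that of EHMT2 at -0.81 and -0.77 without control replicate 1 or GDF11 replicate 3, while without control replicate 3 the number higher was 4. All 3 calls ended with the RNA integrity covariate (-0.54, -0.36 and 0.59).

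Of 28 epithelial adhesion and keratin genes, 26 were tested, 6 rose, 3 fell and 17 were not called, with a median difference of 0.19. SPINT1, a membrane serine protease inhibitor of epithelia, had 637.1 to 857.6 reads in controls and 4537 to 5698 with GDF11, and rose by 2.66 ± 0.16 (adjusted p = 1.69e-05). SPINT2 rose by 1.24 ± 0.13 (adjusted p = 0.000296), and the keratin genes KRT19 and KRT8 by 1.48 ± 0.21 (adjusted p = 0.00153) and 1.28 ± 0.24 (adjusted p = 0.00627). EPCAM, the epithelial adhesion molecule gene, was not called (0.09 ± 0.21, adjusted p = 0.791; -0.48 with the RNA integrity covariate). The number higher was 10 without control replicate 3, and 1 gene was lower when control replicate 1, GDF11 replicate 1 or GDF11 replicate 2 was left out. Keratin genes have near-identical pseudogenes that can take or lend reads.

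Of 24 mesenchymal effector genes, 15 were tested, 9 rose, 1 fell and 5 were not called, with a median difference of 0.71 against 0.006 over all tested genes. Several are known TGF-beta targets, and they were listed with earlier results of these data known, so their direction is no independent evidence. NES, for the intermediate filament protein nestin, rose by 2.68 ± 0.16 (adjusted p = 1.49e-05). COL1A1 had 3.1 to 36.7 reads in controls and 705.7 to 781.1 with GDF11 and rose by 3.22 ± 0.23 (adjusted p = 3.83e-05). AXL, a receptor tyrosine kinase gene, rose by 1.36 ± 0.16 (adjusted p = 0.000491). TAGLN, for the actin-binding protein transgelin, had 3598 to 6001 reads in controls and 14095 to 17506 with GDF11 and rose by 1.68 ± 0.21 (adjusted p = 0.000686). COL1A2, TNC, FAP and POSTN were at group means of 0 to 0.723 reads, and CD44 had 0.0 and 4.32. ACTA2, smooth muscle actin, was the member called lower (-0.98 ± 0.23, adjusted p = 0.0174), a call that ended at -1.01 to -0.83 without control replicate 1 or 2 or GDF11 replicate 1 or 3 and at -0.33 with the RNA integrity covariate, with control replicate 3 at 0.66 of the way to the GDF11 mean. The number higher was 5 with the RNA integrity covariate, 4 without GDF11 replicate 1 and 5 without GDF11 replicate 2.

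**Figure D4:**
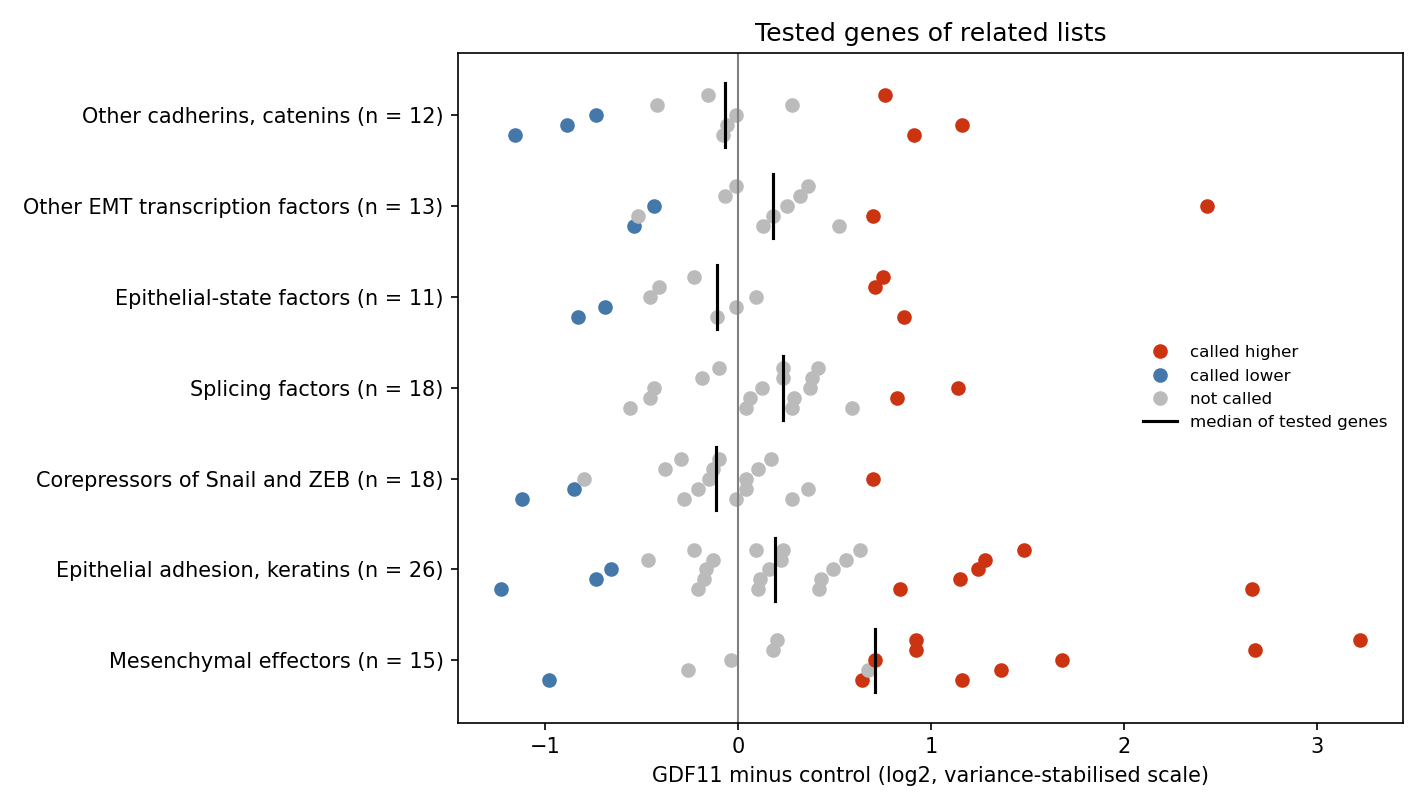
GDF11 minus control (log2, variance-stabilised scale) of each tested gene in 7 related lists, with genes called higher in red, called lower in blue, not called in grey, and the list median as a black line. The mesenchymal effector median lies at 0.71 with 9 of 15 tested genes called higher, while the median of every other list lies between -0.12 and 0.23.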

How the data were processed

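RNA of 3 control and 3 GDF11-treated HepG2 cultures was sequenced as 75-base single reads from directional libraries of 250 ng RNA, per the labels' protocols. Tools listed in the submitters' processing notes are Salmon 1.2.1, DESeq2 and Trimmomatic, with build GRCh38, whereas the labels' protocols describe alignment to hg19 with STAR 2.6; the sources used here do not say which route led to the table. Values in the table that the authors deposited are variance-stabilised log2 values.

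Gene symbols were matched for 58349 of 60240 IDs (96.9%). Positions are from RefSeq GRCh38.p14, by symbol, and transcript lengths from GENCODE (MANE Select). Normalised reads were obtained by inverting the variance-stabilising curve from its lowest value, and depth from the step of 1 read. The scale shrinks log2 changes to 0.696, 0.914 and 0.978 of their size at values of 8, 10 and 12.

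GDF11 was compared with control by limma 3.58.1 under R 4.3.3 (lmFit, eBayes with a mean trend, two-sided, no covariate) on all 6 libraries. Benjamini-Hochberg adjustment ran over 18723 genes. Standard errors, intervals and p-values rest on a gene's spread over 3 cultures per group, drawn toward the trend of spread over all tested genes. They do not measure the gene's own spread alone. The fit was tested on simulated data. All 10 genes are named whatever their result, and of each related list up to 4 called genes with the lowest p; other genes were named after their values were seen. 1 gene of the mesenchymal list is not reported here. The members and lists were chosen with earlier results of these data known. Other settings tried were no filter or a stricter one, quantile normalization, a robust prior, library weights, RNA integrity as a covariate, a replicate block, log2 of reads plus 1, and each library left out. Lists were described by counts and medians. A vimentin minus E-cadherin value was not computed, because VIM was listed at or near the lowest value.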

Additional observations from a re-analysis of the deposited data

How the results depend on the processing

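CDH1, CDH2 and the cadherin balance kept their direction in every alternative run, and both cadherins their calls: CDH1 ranged from 3.38 to 4.38 (adjusted p 1.9e-06 to 0.00494), CDH2 from 1.34 to 2.03 (2.56e-06 to 0.00896) and the balance from -2.27 to -1.68. ZEB1 ranged from 0.50 to 0.82 with 1 library left out, stood at 0.62 without the filter (adjusted p = 0.0531) and at 0.22 with the RNA integrity covariate. SNAI1 turned to 0.01 with library weights, 0.18 with that covariate, 0.02 without control replicate 2 and 0.08 without GDF11 replicate 3; with 1 library left out it ranged from -0.06 to 0.08. ESRP2 ranged from -0.39 to -0.26 with 1 library left out and was called at -0.35 with library weights, so that 1 of the 10 genes was then called lower; without 1 library that number was 0 to 1. SNAI2 did not pass the stricter filter. For EPCAM the sign turned under the RNA integrity covariate (-0.48) and on leaving out control replicate 2 (-0.05) or GDF11 replicate 3 (-0.06), and with 1 library out its difference ranged from -0.06 to 0.28.

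Over all tested genes, the counts higher and lower were 2185 and 2017 as reported, 4473 and 4554 with library weights and 1149 and 721 with the RNA integrity covariate, where 61.4% of the calls were higher. With 1 library left out, 1397 to 3647 were higher and 955 to 3993 lower; the highest counts came without control replicate 3.

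Whether replicate numbers pair the libraries cannot be told from the values. Deviations of same-numbered libraries from their group means correlated at -0.09, 0.38 and 0.48 for replicates 1, 2 and 3. With the replicate block 3147 genes were higher and 3306 lower, against 2185 and 2017 without it. In the lists, 10 adhesion genes were then higher, and 4 splicing genes were higher and 2 lower. The block changed no call among the 10 genes or the 25 named list genes.

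With library weights, 5 other EMT factors, 5 splicing genes, 4 corepressors and 12 adhesion genes were higher, and 4 epithelial-state factors, 3 splicing genes and 5 corepressors were lower. With the RNA integrity covariate, 1 other EMT factor, 1 epithelial-state factor, 0 splicing genes, 0 corepressors and 5 mesenchymal genes were higher, and 0 other cadherins, 0 epithelial-state factors, 0 corepressors and 0 mesenchymal genes were lower; 13 of the 25 named list genes lost their call. Without the filter 1 other EMT factor was higher and 0 lower. With the stricter filter 1 was lower, 1 epithelial-state factor was higher and 1 splicing gene was lower.

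With 1 library left out, the numbers higher were 1 to 3 (other cadherins and catenins), 1 to 5 (other EMT factors), 2 to 3 (epithelial-state factors), 1 to 8 (splicing genes), 0 to 4 (corepressors), 4 to 10 (adhesion genes) and 4 to 10 (mesenchymal genes). The numbers lower were 1 to 3, 0 to 2, 0 to 3, 0 to 2, 1 to 3, 1 to 3 and 0 to 1 in the same order. The cause of these changes was not tested. Small differences in genes with few reads (SNAI2, ZEB2 and ESRP1) were not detectable at this depth.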
